A study of Mus musculus with 4 samples.

Results

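The genes described here are 39 interferon sensing and antiviral effector genes of the mouse, out of 21887 protein-coding genes in the RefSeq gene table. They were chosen by name and function, not by a measured value, but with earlier results of these data known. The set holds 6 receptors and receptor kinases, 8 nucleic acid sensors and 6 genes of ISG15 and ubiquitin conjugation. It also holds 10 antiviral effectors and 9 other interferon-induced genes. Chromatin accessibility at these genes was read from ATAC-seq, in which the Tn5 transposase cuts and tags open DNA. The cells were myeloid-derived suppressor cells (MDSCs), immature myeloid cells that dampen T cell responses, sorted as Gr1+CD11b+ cells from ascitic fluid. All mice had received EL4 cells, which derive from a T cell lymphoma of the mouse, 14 days earlier. They were wild type (WT, 2 libraries) or lacked Sphk2, which encodes the lipid kinase sphingosine kinase 2 (Sphk2 KO, 2 libraries). No library from mice without EL4 cells was used here. Each library was made from 20000 cells with 40% of the recommended Tn5. The labels give no age, sex, knockout allele or number of animals, and call the libraries biological replicates without tying them to animals, so the spread between them may be technical.

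Interferons are secreted proteins that bind paired receptor subunits, whose bound kinases phosphorylate STAT proteins. STAT complexes then enter the nucleus and bind short DNA elements, the interferon-stimulated response element (ISRE) and the gamma-activated site (GAS), near the start of their target genes. Those targets include sensors of foreign RNA and DNA, which lead to more interferon, and effectors that block virus entry, copying or release. In myeloid cells the receptors are present at rest, while many targets are induced.

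The upstream sequences that carry ISRE-like letters within 150 bases of the start are shown first, with those of a receptor gene and of an induced gene that hold none for contrast. The motif searched was GAAA, then NN for any bases, then GAAA, on both strands, and its matches are in capitals. Sequences are from RefSeq (GRCm38.p6, the mm10 assembly), 5′ to 3′ on the gene's strand, and end at the base before the annotated start.
Rsad2, chr12:26456453-26456602, minus strand: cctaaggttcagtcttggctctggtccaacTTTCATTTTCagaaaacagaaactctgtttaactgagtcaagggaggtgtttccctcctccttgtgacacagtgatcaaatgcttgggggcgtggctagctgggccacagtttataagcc
Bst2, chr8:71537473-71537622, minus strand: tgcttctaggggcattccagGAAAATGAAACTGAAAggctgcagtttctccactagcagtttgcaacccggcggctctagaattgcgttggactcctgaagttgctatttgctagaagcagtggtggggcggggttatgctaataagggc
Isg15, chr4:156200819-156200968, minus strand: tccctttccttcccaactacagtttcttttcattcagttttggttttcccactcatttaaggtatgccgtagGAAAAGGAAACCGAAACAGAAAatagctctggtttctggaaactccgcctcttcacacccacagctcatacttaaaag
Ifi205, chr1:174031756-174031905, minus strand: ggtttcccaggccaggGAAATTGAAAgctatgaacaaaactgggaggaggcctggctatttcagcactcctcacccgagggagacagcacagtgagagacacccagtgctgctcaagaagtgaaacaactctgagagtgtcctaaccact
Ifitm2, chr7:140955962-140956111, minus strand: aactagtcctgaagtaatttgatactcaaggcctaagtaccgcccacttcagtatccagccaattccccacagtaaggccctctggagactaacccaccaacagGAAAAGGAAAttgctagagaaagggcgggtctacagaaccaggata
Ifnar1, chr16:91485065-91485214, plus strand: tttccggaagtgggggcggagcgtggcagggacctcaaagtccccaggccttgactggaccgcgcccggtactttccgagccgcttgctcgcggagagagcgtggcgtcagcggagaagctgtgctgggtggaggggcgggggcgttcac
Herc6, chr6:57580842-57580991, plus strand: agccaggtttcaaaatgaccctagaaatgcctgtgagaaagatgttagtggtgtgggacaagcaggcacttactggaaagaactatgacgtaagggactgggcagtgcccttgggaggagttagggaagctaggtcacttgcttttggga

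In 4 further genes the matches lay just after the start, so the site is shown with its flanks (28 bases for Ifih1 and 30 for the others).
Ifih1, chr2:62646206-62646233, minus strand: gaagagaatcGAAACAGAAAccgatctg
Eif2ak2, chr17:78882535-78882564, minus strand: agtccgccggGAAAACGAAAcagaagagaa
Trim21, chr7:102565447-102565476, minus strand: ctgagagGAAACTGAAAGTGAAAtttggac
Ifitm3, chr7:141010714-141010743, minus strand: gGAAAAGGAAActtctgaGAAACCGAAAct
Isg15 held 3 overlapping matches, and Bst2, Trim21, Ifitm3 and Ifi205 held 2 each, 1 of those of Ifi205 after the start and not shown. In the RefSeq windows of 250 bases before to 50 after each start, 9 of the 32 members with a window (28.1%) held an ISRE-like match, against 3.44% of all 32851 windows. None of the 6 receptor and kinase genes held one, nor did any of the 6 other induced genes with a window. A GAS-like match, TTCNNNGAA on both strands, was found in 9 of 32 members (28.1%), against 8.3% of all windows, and 2 of the 15 ISRE-like matches overlapped one, in Bst2 and Ifitm3. Both motifs together occurred in 0.454% of all windows. These are matches of letters, not measured binding sites. No window was given for Dhx58, Zbp1, Ifi204, Usp18, Parp9, Parp14 and Rtp4.

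The authors' peak lists rested on 25877428 to 34443062 fragments per library and held 31507 and 31843 peaks for WT against 20759 and 27446 for Sphk2 KO (replicate 1, then 2), so depth and list length differed between the genotypes. Sphk2 itself had a peak at its gene end in every library (−log10 q, the peak caller's score, of 61.6, 73.5, 28.0 and 70.5), which says nothing of the deleted part. Of 16 granulocytic marker genes, a gene-end peak was called for 12 and 11 in WT against 11 and 12 in Sphk2 KO. Among the defining ones S100a8, S100a9, Cxcr2 and Itgam had one in all 4 libraries, and Ly6g, Mpo and Elane in none. In the same order the counts were 10, 11, 5 and 8 of 15 for monocytic markers, 3, 9, 3 and 3 of 17 for T cell or EL4 markers, 6, 6, 4 and 6 of 10 for dendritic markers, and 0 throughout for 8 B cell markers and 10 genes silent in blood. Summed fold enrichment at the monocytic markers was 57.0 and 55.8 in WT against 29.5 and 42.7 in Sphk2 KO. Fn1 and Irf8 were called in the WT libraries alone, and Ccr2, Ms4a4c, Ms4a6c and Spn had none anywhere. In equal-length lists of top peaks the monocytic counts were 8, 8, 5 and 8, and the T cell or EL4 counts were 3, 3, 3 and 2. The part of these markers in the results given here was not tested.

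Most of the interferon genes had an accessible site at an end in both genotypes. A peak within 1 kb of either gene end was called for 35 and 35 of the 39 genes in WT against 33 and 35 in Sphk2 KO, which is 84.6% to 89.7% of them. The background over all protein-coding genes was 47.9% and 48.8% in WT against 42.6% and 47.3% in Sphk2 KO. With every list cut to its 20759 strongest peaks, to take out list length, the counts were 35, 35, 33 and 34, against 44.6%, 44.8%, 42.6% and 44.6% of all genes. In total 33 members had such a peak in all 4 libraries (41.6% of all genes did), 4 had none, and 2 lacked it only in Sphk2 KO replicate 1. No member had a gene-end peak only in WT (1.27% of all genes) and none only in Sphk2 KO (0.101%), nor did any in the equal-length lists (0.699% and 0.347%). No test was made of these counts: 2 libraries a genotype cannot give a two-sided exact permutation p under 0.333.

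The differences lay in how strong the peaks were. The strength of a peak is given as the authors' −log10 q, the negative logarithm of its false discovery rate against local background, and values are in the order replicate 1, replicate 2. Because this score grows with depth, each library's genes were ranked on it over the same 9111 genes with a gene-end peak in all 4 libraries, from 0% for the strongest to 100% for the weakest. Both WT ranks were better than both Sphk2 KO ranks for 16 of the 33 members (48.5%), against 19.2% of the 9111 genes. The reverse held for 6 members (18.2%), against 20.9% of the genes, and 11 members overlapped. Averaged per genotype, the ranks of 13 members (39.4%) were worse in Sphk2 KO by at least 10 percentage points with no overlap, against 5.13% of genes. None was better by as much, against 5.26%. The median shift, Sphk2 KO minus WT so that positive values are better ranks in WT, was 2.51 points for the members and -0.08 for the 9111 genes. The members' median varied with the setting: it was 1.42 by fold enrichment, 4.68 by the best peak of the extended body, 6.70 at transcription starts only and 6.92 without chromosome 7. With a library left out it was 5.72 and 6.54 (WT replicate 1, then 2) and 7.84 and 4.52 (Sphk2 KO replicate 1, then 2). Outside the receptors and kinases the median was 9.47 over 27 members, of which 15 ranked better in WT and 3 in Sphk2 KO. In bulk chromatin of a sorted population, fewer cells with an open site and a less open site in each cell cannot be told apart.

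The granulocytic and monocytic markers were ranked the same way, beside 19.2% of the 9111 genes better in WT and 20.9% in Sphk2 KO. Of the 10 granulocytic markers called in all libraries, 1 (Retnlg) ranked better in WT and 4 (S100a9, Cxcr2, Mmp9 and Cebpe) in Sphk2 KO, with a median shift of -3.69 points. S100a9 shifted by -29.8 points and Cxcr2 by -8.85, and Ltf was called in the Sphk2 KO libraries alone (2.43 and 7.80). Of the 5 monocytic markers called in all libraries, 1 (Treml4) ranked better in WT and 2 (Csf1r and Cx3cr1) in Sphk2 KO, with a median shift of -1.94 points. The part of either list in the members' shifts was not tested.

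**Figure D1:**
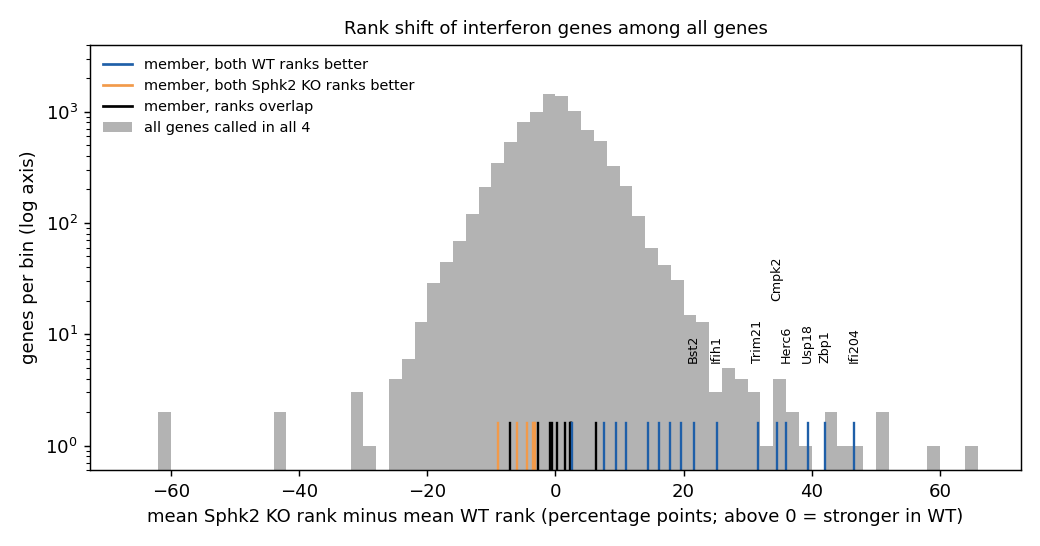
Histogram of the rank shift (mean Sphk2 KO rank minus mean WT rank, in percentage points, x axis) of 9111 genes with a gene-end peak in all 4 libraries, as genes per bin on a log axis, with the 33 interferon genes as vertical ticks coloured by rank order. The 8 labelled genes lie between 21.6 and 46.6 points, past the 99th percentile of all genes at 17.8 points, and the lowest member is at -8.96.

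Members above the 95th percentile of the shift of all genes (10.5 points) numbered 13, and 9 were above the 99th percentile (17.8 points). At the gene-end summits the median number of fragments was 89 and 108 in WT against 32 and 62 in Sphk2 KO, over the members called in each library. These numbers are not scaled to depth, which was 33859480 and 34443062 fragments in WT against 25877428 and 27686223 in Sphk2 KO. The median −log10 q of the 33 members was 51.7 and 61.1 in WT against 16.5 and 38.1 in Sphk2 KO, whereas that of all 9111 genes was 56.5 and 63.2 in WT against 35.5 and 73.6 in Sphk2 KO. In WT the members thus sat slightly below the median gene, and in Sphk2 KO well below it. Sphk2 KO replicate 1, the shortest list, and replicate 2 lay on opposite sides of WT for all genes and on the same side for the members.

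The receptor genes Ifnar1 and Ifngr1 and the kinase gene Jak1 had the 3 best mean ranks of the set, and their shifts were small. Ifnar1, a subunit of the type I interferon receptor, had a −log10 q of 163 and 171 in WT against 124 and 263 in Sphk2 KO at chr16:91484780-91485769, with the summit 97 to 103 bases before its start. Its ranks were 6.48% and 6.90% in WT against 4.37% and 2.68% in Sphk2 KO, the best of any member, and both Sphk2 KO ranks were better. Ifngr1, the ligand-binding subunit of the type II receptor, had values of 138 and 154 in WT against 118 and 194 in Sphk2 KO and a shift of -3.28 points, toward better ranks in Sphk2 KO, an order lost by fold enrichment, where the ranks overlapped (-6.61). In both genes the Sphk2 KO libraries enclosed the WT values on the score itself, and only the ranks separated. Tyk2, a kinase bound to the type I receptor, scored 66.7 and 70.3 in WT against 50.8 and 90.6 in Sphk2 KO, and its rank shifted by -5.95 points, again better in Sphk2 KO. Jak1, the kinase used by both receptors, scored 147 and 153 in WT against 93.3 and 174 in Sphk2 KO and ranked 2.51 points better in WT, a shift that changed sign when genes were ranked by fold enrichment (-0.719).

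By their best gene-end peak the remaining receptor subunits overlapped between genotypes. Ifngr2 scored 53.5 and 65.6 in WT against 38.7 and 65.6 in Sphk2 KO. Ifnar2 scored 41.6 and 59.0 in WT against 29.9 and 52.1 in Sphk2 KO, but these are not 1 site: in WT replicate 2 the best peak was at the start, and in the other libraries it was at the far end of the gene, which is also near an end of Il10rb. At the start of Ifnar2 itself, chr16:91372453-91373929, the scores were 39.9 and 59.0 in WT against 19.2 and 37.4 in Sphk2 KO and both WT ranks were better, and ranked by starts only the gene shifted by 13.8 points. By best gene-end peak, the median shift across the 6 genes of this group was -1.45 points, with 1 gene better in WT and 3 in Sphk2 KO. Over the 9111 genes the shares were 19.2% and 20.9%.

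**Figure D2:**
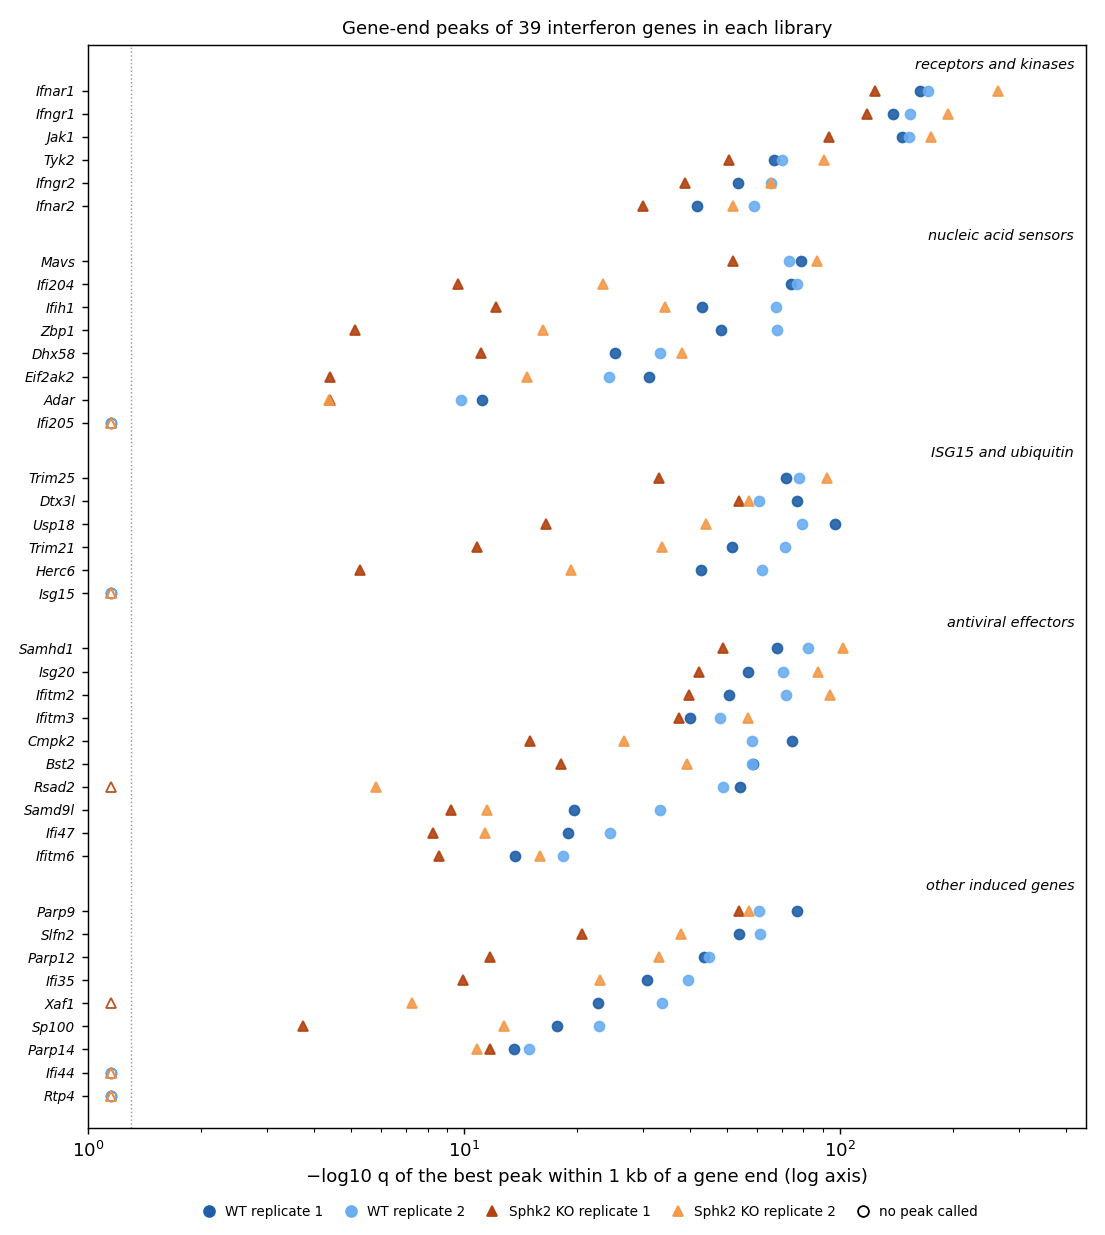
The −log10 q of the best gene-end peak (x axis, log scale) of each of the 39 genes, grouped by role, with 1 symbol per library and open symbols at the left for no peak called. For Ifnar1, Ifngr1, Jak1 and Tyk2 the Sphk2 KO triangles lie on either side of the WT circles, whereas for Ifi204, Zbp1, Usp18, Herc6 and Cmpk2 both triangles lie to the left of both circles.

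The nucleic acid sensors were split. Ifi204, a member of the DNA-sensing Ifi200 family, had a −log10 q of 74.3 and 76.8 in WT against 9.62 and 23.4 in Sphk2 KO at chr1:173766301-173767741. Its summit held 112 and 127 fragments in WT against 24 and 45 in Sphk2 KO, and its ranks were 38.1% and 41.2% in WT against 87.2% and 85.3% in Sphk2 KO. Both Sphk2 KO libraries were far below both WT libraries, and the shift of 46.6 points was the widest of all members. Zbp1, which senses left-handed nucleic acid and can start cell death, scored 48.3 and 68.1 in WT against 5.12 and 16.2 in Sphk2 KO at chr2:173218049-173219896. Its ranks were 56.3% and 46.7% in WT against 95.6% and 91.7% in Sphk2 KO, near the weakest peaks of the list.

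Ifih1, which encodes the cytosolic double-stranded RNA sensor MDA5, scored 43.0 and 67.6 in WT against 12.2 and 34.3 in Sphk2 KO, a shift of 25.1 points with no overlap. Its summits were 82 to 122 bases after the start, and 45.5 to 85.5 bases from the ISRE-like match shown. Eif2ak2, the RNA-activated kinase PKR that halts translation, scored 31.0 and 24.3 in WT against 4.39 and 14.7 in Sphk2 KO, a shift of 16.2 points. In 3 libraries its summit lay 2 to 9 bases before the start, and in Sphk2 KO replicate 1 it lay 332 bases after it, in a peak of 15 fragments. The peak is also at the end of Gm26637, so both genes share this value.

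The other sensors overlapped between genotypes. Mavs, the mitochondrial adaptor that relays RNA sensing, scored 78.6 and 73.1 in WT against 52.0 and 86.9 in Sphk2 KO. Dhx58, which encodes the RNA-sensing regulator LGP2, scored 25.2 and 33.3 in WT against 11.1 and 38.1 in Sphk2 KO in a peak that also lies at an end of Kat2a. Adar, which edits adenosine in double-stranded RNA, had a weak gene-end peak of 11.2 and 9.84 in WT against 4.39 and 4.38 in Sphk2 KO, and the ranks of both genotypes were between 94.4% and 99.5%. A stronger Adar site lay inside the gene at chr3:89730225-89731281, with 74.1 and 85.4 in WT against 26.5 and 75.0 in Sphk2 KO, and there both WT ranks were better. Ifi205, a relative of Ifi204, had no gene-end peak in any library although its window holds ISRE-like letters. Its nearest region, 7252 bp from the gene, scored 12.9 and 20.4 in WT against 6.65 and 12.2 in Sphk2 KO. Of the 7 sensors called in all 4 libraries, 4 ranked better in WT and 0 in Sphk2 KO, with a median shift of 16.2 points. Over the 9111 genes the shares were 19.2% and 20.9%.

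Among the genes of ISG15 conjugation and ubiquitin ligation, 3 of 5 called in all libraries ranked better in WT and 0 in Sphk2 KO. The shares of the 9111 genes were 19.2% and 20.9%. Usp18, which removes ISG15 from proteins and restrains the type I receptor, scored 96.9 and 79.4 in WT against 16.5 and 44.1 in Sphk2 KO at chr6:121245023-121246189. Its summit held 132 and 134 fragments in WT against 32 and 74 in Sphk2 KO, and it ranked at 25.1% and 39.8% in WT against 74.8% and 68.8% in Sphk2 KO, a shift of 39.4 points. Herc6, the mouse ligase that attaches ISG15, scored 42.7 and 61.9 in WT against 5.28 and 19.2 in Sphk2 KO with summits 14 to 47 bases after the start, and shifted by 36.0 points. Its 150 upstream bases hold no ISRE-like match.

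Trim21, a ubiquitin ligase that binds antibody-coated virus, scored 51.7 and 71.7 in WT against 10.8 and 33.7 in Sphk2 KO at chr7:102565119-102565791, a shift of 31.5 points. Its summits were 34 to 60 bases before the start. Trim21 lies on chromosome 7, which also carries Sphk2, and the part of that location in its shift was not tested. With the 5 members on that chromosome left out, 15 of 28 ranked better in WT (53.6%, against 19.2% of the 9111 genes). The reverse held for 4 (14.3%, against 20.9%). Trim25, the ligase that activates the RNA sensor RIG-I, overlapped, with 71.7 and 77.7 in WT against 32.9 and 92.6 in Sphk2 KO. Dtx3l, a ubiquitin ligase, and Parp9, its partner in a complex, share 1 peak, with 77.0 and 61.1 in WT against 53.9 and 57.2 in Sphk2 KO, and overlapped.

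Isg15, which encodes the ubiquitin-like protein of this system, had no peak within 1 kb of its ends in any library, although its upstream sequence holds 3 ISRE-like matches, more than that of any other member. The nearest region had its summit 1474 bp away, next to Agrn, and scored 176 and 208 in WT against 125 and 236 in Sphk2 KO, with overlapping ranks. On the other side, a region next to Perm1 scored 18.8 and 24.5 in WT against 6.36 and 14.9 in Sphk2 KO, and ranked better in WT.

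The antiviral effectors held a gene not called in 1 Sphk2 KO library, and also 3 of the 6 genes that ranked better in Sphk2 KO. Rsad2, which encodes viperin, an enzyme that makes a chain-ending nucleotide, had a gene-end peak at chr12:26456092-26456666 with a −log10 q of 54.2 and 48.8 in WT. It was not called in Sphk2 KO replicate 1 and scored 5.83 in replicate 2. The summit held 114 and 121 fragments in WT against 31 in Sphk2 KO replicate 2, a fold enrichment over local background of 6.88, 5.70 and 3.09. In WT the summit lay 54 and 55 bases before the start, 60.5 and 61.5 bases from the middle of the ISRE-like match shown. In all, 3.31% of protein-coding genes lacked a gene-end peak in Sphk2 KO replicate 1 alone.

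Cmpk2, a mitochondrial nucleotide kinase next to Rsad2, scored 74.7 and 58.5 in WT against 15.0 and 26.7 in Sphk2 KO at chr12:26469119-26470050, and its summit held 108 and 105 fragments in WT against 30 and 49 in Sphk2 KO. Both Sphk2 KO libraries were below both WT libraries and the shift was 34.6 points, although with the best peak of the extended gene body in place of the gene end the ranks overlapped. Between these neighbours, a region at chr12:26459934-26460977 kept high scores in all libraries, 62.6 and 79.2 in WT against 46.2 and 58.4 in Sphk2 KO, with overlapping ranks. Bst2, which encodes tetherin and holds budding virus at the membrane, scored 58.8 and 58.4 in WT against 18.1 and 39.2 in Sphk2 KO, a shift of 21.6 points. Its summits lay 12 to 72 bases before the start, 47.5 to 113.5 bases from its pair of ISRE-like matches. For Bst2 too, the ranks overlapped with the best peak of the extended body. Bst2 is also 1 of the 10 dendritic markers.

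Weaker peaks with the same order were seen at Samd9l and Ifi47. Samd9l, a restriction factor of poxviruses, scored 19.6 and 33.2 in WT against 9.26 and 11.5 in Sphk2 KO, a shift of 11.0 points that overlapped when ranked by fold enrichment. Ifi47, an interferon-inducible GTPase, scored 18.9 and 24.4 in WT against 8.27 and 11.4 in Sphk2 KO, a shift of 7.51 points. In both genes all 4 libraries ranked between 75.6% and 95.7%, toward the weak end of the list.

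The effectors with better ranks in Sphk2 KO shifted by less. Isg20, an RNA exonuclease, scored 56.8 and 70.8 in WT against 42.1 and 87.6 in Sphk2 KO with a shift of -4.41 points. Samhd1, which depletes the nucleotides that viruses need for DNA synthesis, scored 68.2 and 82.4 in WT against 48.9 and 102 in Sphk2 KO, a shift of -3.50 points, and of 0.0165 in the other direction when ranked by fold enrichment. Ifitm3, a membrane protein that blocks virus entry, scored 39.9 and 48.1 in WT against 37.4 and 57.0 in Sphk2 KO, a shift of -8.96 points. That peak, at chr7:141008279-141009458, had its summit 2245 to 2293 bases after the start and so beyond the far end of the gene, away from the ISRE-like letters shown, and the order was lost by fold enrichment and by the best peak of the extended body.

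Its relatives in the same cluster overlapped. Ifitm2 scored 50.6 and 71.8 in WT against 39.6 and 94.2 in Sphk2 KO, with summits also at the far end of the gene, 1566 to 1677 bases after the start. In replicate 2 of both genotypes the peak reached across the start, and in replicate 1 it did not. Ifitm6 scored 13.7 and 18.3 in WT against 8.61 and 16.0 in Sphk2 KO with summits 73 to 79 bases before the start. Of the 9 effectors called in all libraries, 4 ranked better in WT and 3 in Sphk2 KO, and the median shift was -0.52 points. Over the 9111 genes the shares were 19.2% and 20.9%.

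The other induced genes mostly ranked better in WT. Slfn2, a schlafen family gene known for keeping immune cells quiescent, scored 53.9 and 61.1 in WT against 20.6 and 37.8 in Sphk2 KO, a shift of 19.5 points that overlapped by fold enrichment (1.42). Parp12, an ADP-ribosyltransferase, scored 43.6 and 44.9 in WT against 11.7 and 33.0 in Sphk2 KO, a shift of 17.8 points. Ifi35, which encodes an interferon-induced partner of Nmi, scored 30.7 and 39.4 in WT against 9.97 and 23.1 in Sphk2 KO, a shift of 14.5 points. In these genes both Sphk2 KO libraries were below both WT libraries. Sp100, a scaffold of nuclear bodies, scored 17.7 and 22.9 in WT against 3.73 and 12.8 in Sphk2 KO, a shift of 9.47 points at a weak peak.

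Within Sp100 a much stronger site at chr1:85703323-85704079 scored 75.7 and 64.3 in WT against 58.0 and 105 in Sphk2 KO, and ranked by it the gene moved -11.1 points, toward Sphk2 KO. Xaf1, an interferon-induced gene linked to apoptosis, was the other gene without a peak in 1 library: its −log10 q was 22.7 and 33.6 in WT. It was not called in Sphk2 KO replicate 1 and scored 7.28 in replicate 2. Where called, its summit lay 27 to 37 bases before the start. Parp14, a large ADP-ribosyltransferase, scored 13.6 and 14.9 in WT against 11.7 and 10.9 in Sphk2 KO and overlapped. Rtp4, which restricts flaviviruses, had no gene-end peak by the coordinates of the gene table (chr16:23520219-23614222), but a region inside it, at chr16:23609453-23610314, scored 42.6 and 74.2 in WT against 8.82 and 19.8 in Sphk2 KO and ranked better in WT. Ifi44 had no peak at its ends or within 10 kb, and the nearest region was 292907 bp away. Of the 6 genes of this group called in all libraries, 4 ranked better in WT and 0 in Sphk2 KO, with a median shift of 12.0 points. The shares of the 9111 genes were 19.2% and 20.9%.

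**Figure D3:**
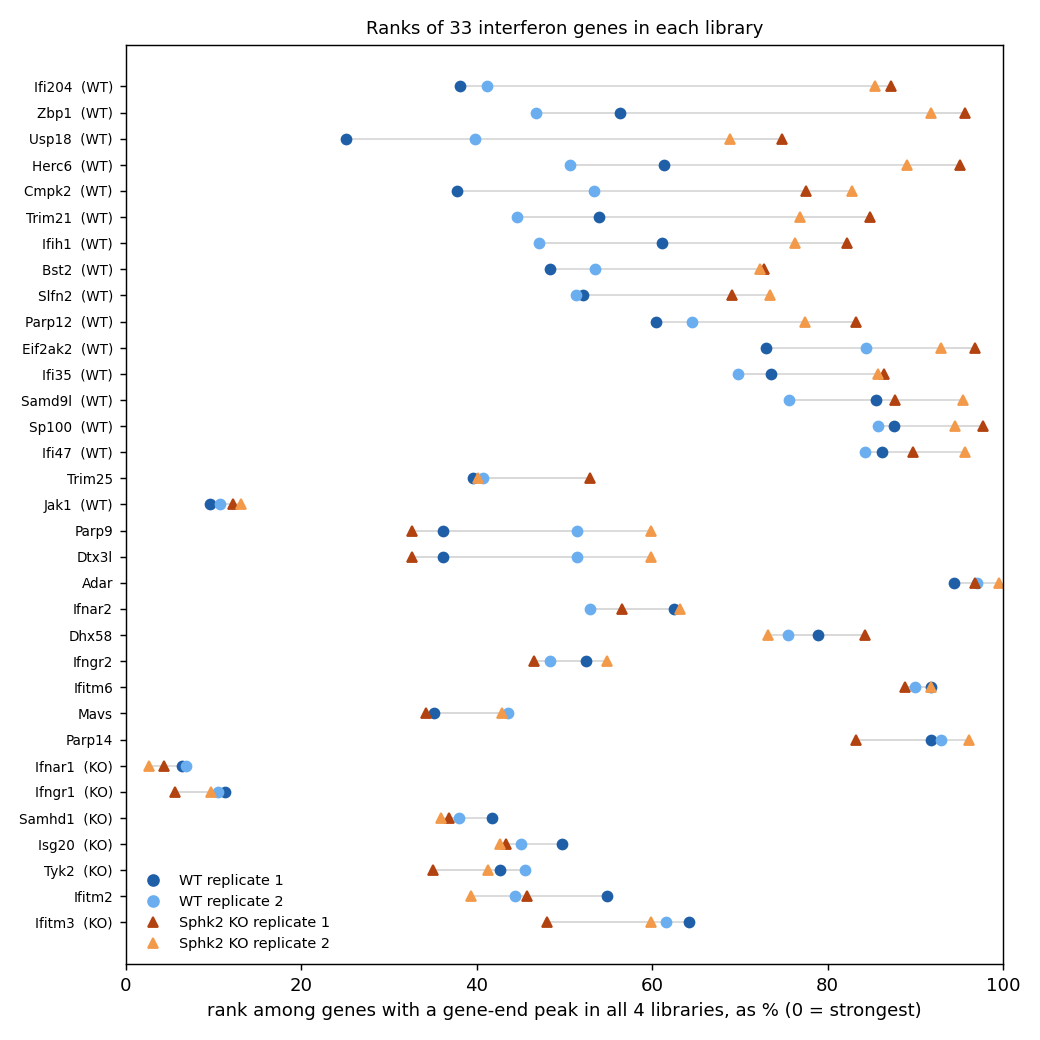
Rank of the gene-end peak of each of the 33 interferon genes in each library (x axis, percent of 9111 genes, 0 strongest), ordered by shift, with the genotype in brackets where both its ranks are better. From Ifi204 to Ifi47 the WT circles lie left of the Sphk2 KO triangles. Ifitm3 is at the foot, and above it Ifnar1 and Ifngr1 rank between 2.68% and 11.4% in all libraries.

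A wider window gave similar shares. With the gene body extended by 10 kb on either side, 38 and 38 members had a peak in WT against 37 and 38 in Sphk2 KO, beside 64.5% and 65.1% of all genes in WT against 56.5% and 62.4% in Sphk2 KO. Merged at 1 bp of overlap, these peaks formed 121 regions, 35 at gene ends, 37 inside genes and 49 in the flanks. A region near more than 1 member was classed by the first of them. The region at the end of Ifitm6 (chr7:141016566-141017970, overlapping ranks) was thus counted as a flank of Ifitm3. Of the 70 regions called in all libraries, 34 ranked better in both WT libraries (48.6%, against 21.2% of 14367 such regions near all genes). The reverse order was found in 10 (14.3%, against 21.6%). Of those classed at gene ends, 18 of 32 such regions ranked better in WT and 5 in Sphk2 KO. In the flanks 12 of 27 ranked better in WT and 2 in Sphk2 KO, and inside the genes 4 and 3 of 11 did. Some flank regions lie at the end of another gene, such as that of Ifi207 beside Ifi204. Those at Ifi207, Rpl27 and Perm1 ranked better in WT, and those at Agrn and Mvb12a overlapped.

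Regions called in both WT libraries and neither Sphk2 KO library numbered 6 of 121 (4.96%), close to the 5.45% of all 29351 regions within 10 kb of a gene. The highest scores were 7.13 and 18.5 at chr16:91475615-91476308, in the flank of Ifnar1. Inside Ifi47 lay a pair, chr11:49083163-49083424 with 5.06 and 10.0 and chr11:49086790-49087327 with 4.18 and 6.14. The rest were inside Trim25 (chr11:89009085-89009372, 8.39 and 4.37), inside Samd9l (chr6:3384549-3385104, 5.20 and 5.24) and in the flank of Bst2 (chr8:71528629-71528955, 4.94 and 6.82). A single region was called only in Sphk2 KO (0.826%, against 0.62%), at chr7:141006488-141006758 between Ifitm3 and Ifitm6, with 6.22 and 8.34. In equal-length lists the counts were 4 (3.31%, against 2.34%) and 2 (1.65%, against 1.36%), also near the background.

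The same readout was made for 84 other genes of the interferon pathway, which hold none of the 39 members. A gene-end peak was called for 68 and 70 of them in WT against 52 and 60 in Sphk2 KO. Over all genes the shares were 47.9% and 48.8% in WT against 42.6% and 47.3% in Sphk2 KO. In equal-length lists the pathway counts were 63 and 65 in WT against 52 and 57 in Sphk2 KO. In the full lists 10 of the 84 genes were called in the WT libraries alone, beside 1.27% of all genes. They were Ifit3 (40.9 and 63.9), Gvin1 (32.1 and 42.6), Oas3 (22.2 and 23.8), Irf8 (17.0 and 7.55), Cxcl10 (15.8 and 10.7), Oas1a (6.38 and 12.3), Ifi203 (6.38 and 13.1), Gbp4 (7.74 and 8.99), Lgals3bp (8.69 and 7.69) and Sp110 (2.33 and 3.24), with the −log10 q of WT replicates 1 and 2 in brackets. Only Irf8 is also a monocytic marker. Trim30d had the reverse, with 25.2 and 39.3 in Sphk2 KO, beside 0.101% of all genes. Gvin1 and Trim30d lie on chromosome 7, which also carries Sphk2, and the part of that location in their calls was not tested. In equal-length lists 9 of the pathway genes were called in WT alone (0.699% of all genes) and 2 in Sphk2 KO alone (0.347%). Of the 51 called in all libraries, 32 (62.7%) ranked better in WT and 7 (13.7%) in Sphk2 KO, with a median shift of 7.63 points. In both lists the share with better WT ranks was above the 19.2% of all genes.

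Some transcription factors of the pathway ranked better in WT. Irf9, the DNA-binding part of the complex that recognises the ISRE, scored 97.8 and 111 in WT against 34.5 and 69.8 in Sphk2 KO, a shift of 27.6 points, and Irf7, which drives interferon genes, scored 51.3 and 70.5 in WT against 17.5 and 24.3 in Sphk2 KO, a shift of 29.3 points. Stat2, which joins Irf9, scored 87.3 and 77.0 in WT against 39.6 and 64.3 in Sphk2 KO, a shift of 15.2 points. Among the targets Ifit3b scored 95.1 and 125 in WT against 10.5 and 19.0 in Sphk2 KO, a shift of 65.2 points, and Ifit1, which binds foreign RNA, scored 33.7 and 52.6 in WT against 4.11 and 5.78 in Sphk2 KO, a shift of 34.0 points. Socs1 and Socs3, inhibitors of cytokine receptors, ranked better in Sphk2 KO, with shifts of -3.90 and -8.11 points. These 7 genes were chosen after their values were seen. Irf7 lies on chromosome 7, and the part of that location in its shift was not tested.

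**Figure D4:**
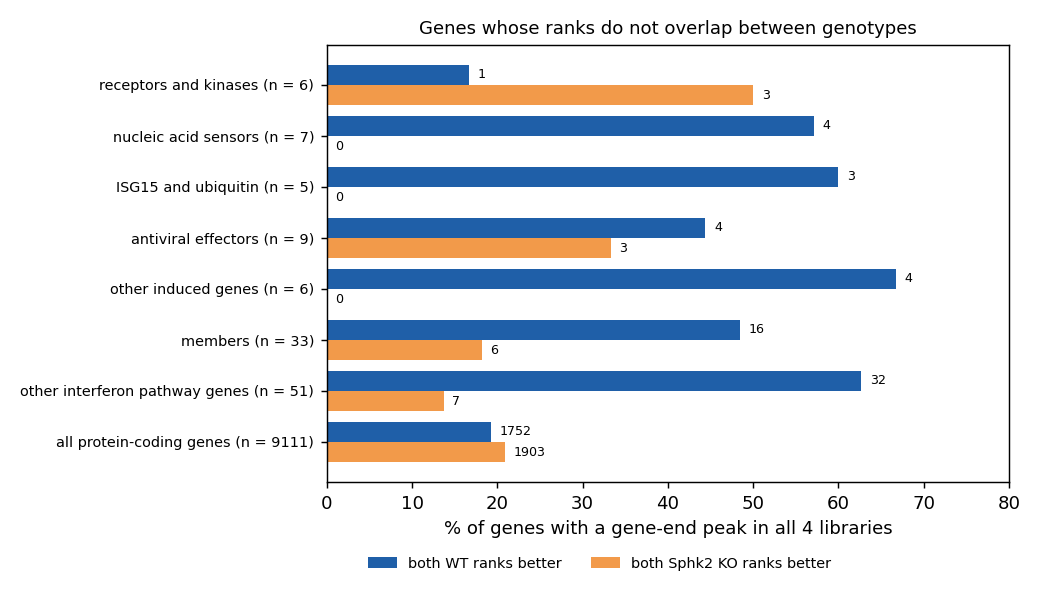
Share of genes (x axis, percent of those with a gene-end peak in all 4 libraries, n in brackets) whose ranks in both WT libraries, or both Sphk2 KO libraries, are better than both of the other genotype, with counts at the bars. The WT bar is 48.5% for the members and 62.7% for the other pathway genes against 19.2% for all genes, and among the role groups the receptors and kinases alone have a longer Sphk2 KO bar.

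The ISRE-like letters were also set beside the ranks of all genes. Of 224 genes with a window, a gene-end peak in all libraries and an ISRE-like match, 31.7% ranked better in WT and 15.6% in Sphk2 KO, against 18.9% and 20.8% of 7251 genes without a match. For the 218 of these that are not members the shares were 30.7% and 15.6%. The other pathway genes listed above were not taken out of the 218. Over all genes the GAS-like letters showed no such contrast, with 19.1% and 20.1% of 502 genes against 19.2% and 20.7% of 6973. Among the members, 4 of 6 with an ISRE-like match and 9 of 21 without one ranked better in WT. Herc6, Cmpk2 and Parp12 were such members without a match. With a GAS-like match 3 of 9 members ranked better in WT and 4 in Sphk2 KO, and of 18 without one 10 and 2 did.

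The libraries that stand apart were left out in turn. Without Sphk2 KO replicate 1, the shortest list, 23 of the 33 members ranked better in WT (against 32.9% of all genes in that setting) and 8 in Sphk2 KO (35.1%). Without Sphk2 KO replicate 2 the counts were 18 (35.4%) and 12 (36.3%). Without WT replicate 2, which had the most T cell marker peaks in the full lists, they were 18 (34.8%) and 7 (36.1%). Without WT replicate 1 they were 17 (33.9%) and 7 (35.7%). With equal-length lists 16 of 32 ranked better in WT (19.1%) and 6 in Sphk2 KO (20.7%). Ranked by fold enrichment, the counts were 14 (16.3%) and 3 (18.0%).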

How the data were processed

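ATAC-seq peak lists of 4 libraries were used, 2 WT and 2 Sphk2 KO, grouped by the labels. The submitters' processing notes name Cutadapt, BWA, MACS2 and mm10, in no stated role. Per the file headers, peaks were called for each library alone with MACS 2.1.1.20160309 on whole fragments of read pairs and no control, with a q-value of 0.05, a local background of 10 kb and a genome size of 1.87e+09, keeping 1 fragment per position. The sources used here do not give whether ends were shifted for Tn5.

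Each deposited list gives a peak's pileup, a coverage signal in fragments not scaled to depth. It also gives the authors' −log10 p-value and −log10 q-value and their fold enrichment, a ratio of pileup over local background. These scores are the authors', belong to each peak and grow with depth, so they served to describe, filter and rank within a list. Region counts were not used here, so a site below the threshold counts as not called.

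Gene positions were those of RefSeq on GRCm38.p6 (mm10), and starts, strand and sequence from the RefSeq promoter windows, with 32 of 39 members matched. The table's exons and introns were not used here. A gene had a gene-end peak where a peak lay within 1 kb of either end, and a body peak where one lay within the gene extended by 10 kb. Peaks of all libraries were merged at 1 bp of overlap. Genes with a gene-end peak in all 4 libraries were ranked on their best −log10 q. Python 3.11.15, numpy 2.4.6, pandas 2.3.3 and matplotlib 3.10.9 were used. The ranking code was run on simulated scores with both Sphk2 KO libraries scaled alike. The real Sphk2 KO libraries differ from each other, so that run does not measure how reliable the order is here.

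The members and lists were chosen with earlier results of these data known, so no p is given over them. Values in every library were given for members with calls or ranks that separate genotypes or libraries, for the best ranked, and for further members by rank. Of the other pathway genes, those called in 1 genotype were named. The 84 pathway genes and the marker lists came from general knowledge. Alternatives were stricter q-values, equal-length lists, summit windows, other distances, starts alone, fold enrichment, the best body peak, chromosome 7 left out, shared peaks counted once and each library left out. For the rank order, those of list length, starts alone, chromosome 7 and shared peaks were chosen after seeing the data.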

Additional observations from a re-analysis of the deposited data

How the results depend on the processing

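Depth, list length and enrichment all differed between the genotypes, and a weak site can fall under the calling threshold in the shorter Sphk2 KO lists. The excess of members with a gene-end peak in WT (mean of 2 libraries minus mean of 2) was 1 gene. It was 3 and 7 genes with a −log10 q of at least 5 and 10 and 2.5 with ends of 500 bp, and 0 to 2 with each library left out (0 without Sphk2 KO replicate 1, 2 without replicate 2). Genes called in WT alone were 0, but 1 (Adar) and 2 (Rsad2 and Xaf1) at those q-values, 1 (Dhx58) at 500 bp, and 0 to 2 with each library left out, 2 being Rsad2 and Xaf1 without Sphk2 KO replicate 2. Genes called in Sphk2 KO alone were 0 in every setting run. For the extended body the excess of 0.5 genes was 4 at a −log10 q of at least 10 and 0 to 1 with a library left out (0 without Sphk2 KO replicate 1, 1 without replicate 2). WT-only regions numbered 6, or 13 with 25 kb of extension and 7 to 17 with a library left out (12, 15 and 17 without WT replicate 1, WT replicate 2 and Sphk2 KO replicate 2), where fewer libraries make the condition easier to meet. The single Sphk2 KO-only region became 0 at a −log10 q of at least 10, without body extension and without chromosome 7, 2 in equal-length lists and in 250 bp summit windows, and 1 to 10 with a library left out, 10 being without Sphk2 KO replicate 1.

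Members ranked better in WT numbered 14 to 18 over the settings that kept all libraries (16 as reported) and 17 to 23 with a library left out. The number of members ranked also varied: the 14 were of 33 by fold enrichment, 30 at a −log10 q of at least 5 and 26 at starts only. The 18 were of 37 members by the best body peak. Those ranked better in Sphk2 KO were 6, 3 by fold enrichment and 7 to 12 with a library left out, 12 being without Sphk2 KO replicate 2. The members' median shift of 2.51 points was 1.42 to 6.92 over the settings that kept all libraries and 4.52 to 7.84 with a library left out. Reversed shifts were those of Jak1 (-0.719) and Samhd1 (0.0165) by fold enrichment and of Sp100 (-11.1) by the best body peak. Over all settings with a value that kept all libraries, 10 of the 16 members better in WT and 3 of the 6 better in Sphk2 KO kept their order. The cause of these changes was not tested. No paired analysis was possible because the results come from no test and the replicate numbers tie no animals together.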
